A study of Mus musculus with 16 samples.

Results

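The genes described here are Fabp4, Lpl, Adipoq, Plin1, Plin4, Cidec, Cfd, Retn, Car3 and Pparg, which are 10 of the 46078 genes in a table of read counts from ileum mucosa. All 10 were found by symbol. RNA was sequenced from 16 C57Bl/6 mice, 8 lacking Slfn3 (Slfn3KO) and 8 WT littermates, with 4 mice labelled female and 4 labelled male in each genotype. The labels give an age of 8 weeks for every mouse, whereas the methods of the study give an older range. The knockout, read by PCR of tail DNA, was not limited to the intestine. The study compared the genotypes within each sex to look for transcripts related to the weight gain of the mice. Fabp4 and Lpl were selected on values of these same 16 libraries, since the study had placed them in a group of genes that were higher in male and lower in female Slfn3KO mice. The other 8 genes were chosen as known adipocyte genes, with results of these data in view, to see library by library whether mesenteric fat RNA was among the mucosal RNA. Their differences between genotypes are therefore given as descriptions, and nothing is read from how many of them passed a threshold in the fits across all genes.

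Adipocytes store triglyceride in a single large lipid droplet and release it as fatty acids. Lpl, lipoprotein lipase, works on the capillary wall and frees fatty acids from circulating triglyceride, and Fabp4 is a fatty acid carrier of the cytosol that is abundant in adipocytes and is also made by capillary endothelium and macrophages. Adipoq (adiponectin), Retn (resistin) and Cfd (adipsin, complement factor D) are secreted by adipocytes, while Plin1, Plin4 and Cidec are proteins of the lipid droplet surface. Car3 is a carbonic anhydrase that is abundant in adipocytes and skeletal muscle, and Pparg is the nuclear receptor that drives adipocyte differentiation. In the mouse the ileum hangs on the mesentery, whose fat lies against the outer wall, whereas the mucosa is the inner layer of epithelium and connective tissue. In such bulk RNA fewer cells of a type and less RNA per cell cannot be told apart.

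Between 20823279 and 30813117 reads were counted per library. Levels are given as counts or as counts-per-million (CPM) values after TMM scaling, which corrects for differences in RNA composition. A gene with 0 counts may have up to 3 counts by counting error, or 0.0974 to 0.144 CPM of the unscaled library total. Slfn3 itself had 0 to 2 counts in Slfn3KO libraries and 0 to 19 in WT libraries, so that the ranges overlapped and these counts are a weak check of the genotype. The libraries labelled female WT 3 and 4 had Ddx3y, a Y-linked gene, at 42.0 and 49.6 CPM with Xist at 0.124 and 0 CPM, while male WT 3 and 4 held 436 and 401 CPM of Xist but only 0 and 0.0415 CPM of Ddx3y. In these 4 libraries the transcripts contradict the sex in the label. The main fold changes, the calls and the correlations with gene lists are therefore also given without these 4, while levels and the likeness between genes are given for all 16. Leaving them out leaves only 2 WT mice in each labelled sex, beside 4 Slfn3KO mice. As defining markers of the labelled tissue, the enterocyte genes Vil1 and Apoa1 were present in every library at 2203 CPM or more and 1921 CPM or more.

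Adipoq, the most adipocyte-specific of the secreted products, was concentrated in 3 libraries. Its counts were 1, 59, 4 and 56 in male Slfn3KO 1 to 4, 1, 2, 0 and 0 in male WT 1 to 4, 0, 2, 2 and 0 in female Slfn3KO 1 to 4, and 0, 0, 2 and 28 in female WT 1 to 4. Male Slfn3KO 2 and 4 and female WT 4 were thus high and the other 13 libraries held at most 4 counts each. These 3 libraries had 18.3% of all counts but 91.1% of those of Adipoq. Adipoq lies on chromosome 16 at 23146536 to 23158028 (mm10, plus strand), and 0% of the 50-base stretches of its transcripts occur in another gene.

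Cfd followed the same libraries. Its counts were 0, 152, 20 and 167 in male Slfn3KO, 0, 15, 0 and 1 in male WT, 0, 10, 8 and 0 in female Slfn3KO, and 1, 0, 1 and 75 in female WT. The 3 libraries highest in Adipoq had 87.6% of its counts and were above all others, with male Slfn3KO 3 next. Retn had 45 of its 57 counts (78.9%) in the 3 libraries, with 17 and 19 in male Slfn3KO 2 and 4 and 9 in female WT 4. No other library exceeded 4 counts of Retn, and the 4 female Slfn3KO libraries had 0.

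Among the genes of the lipid droplet surface, Plin1 had 26 of its 33 counts (78.8%) in the 3 libraries, with 9, 12 and 5 counts, and at most 4 elsewhere. Plin1 was at 0 in all 4 male WT libraries. Plin4 had 60 of 92 counts (65.2%) there, with 19 and 29 in male Slfn3KO 2 and 4, 12 in female WT 4 and at most 9 elsewhere. Female Slfn3KO 2 was the library with 9. Car3, the carbonic anhydrase, had 0, 181, 33 and 213 counts in male Slfn3KO, 6, 20, 3 and 2 in male WT, 4, 17, 7 and 0 in female Slfn3KO, and 12, 2, 5 and 94 in female WT. The 3 libraries held 81.5% of its counts and were again above the other 13.

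**Figure D1:**
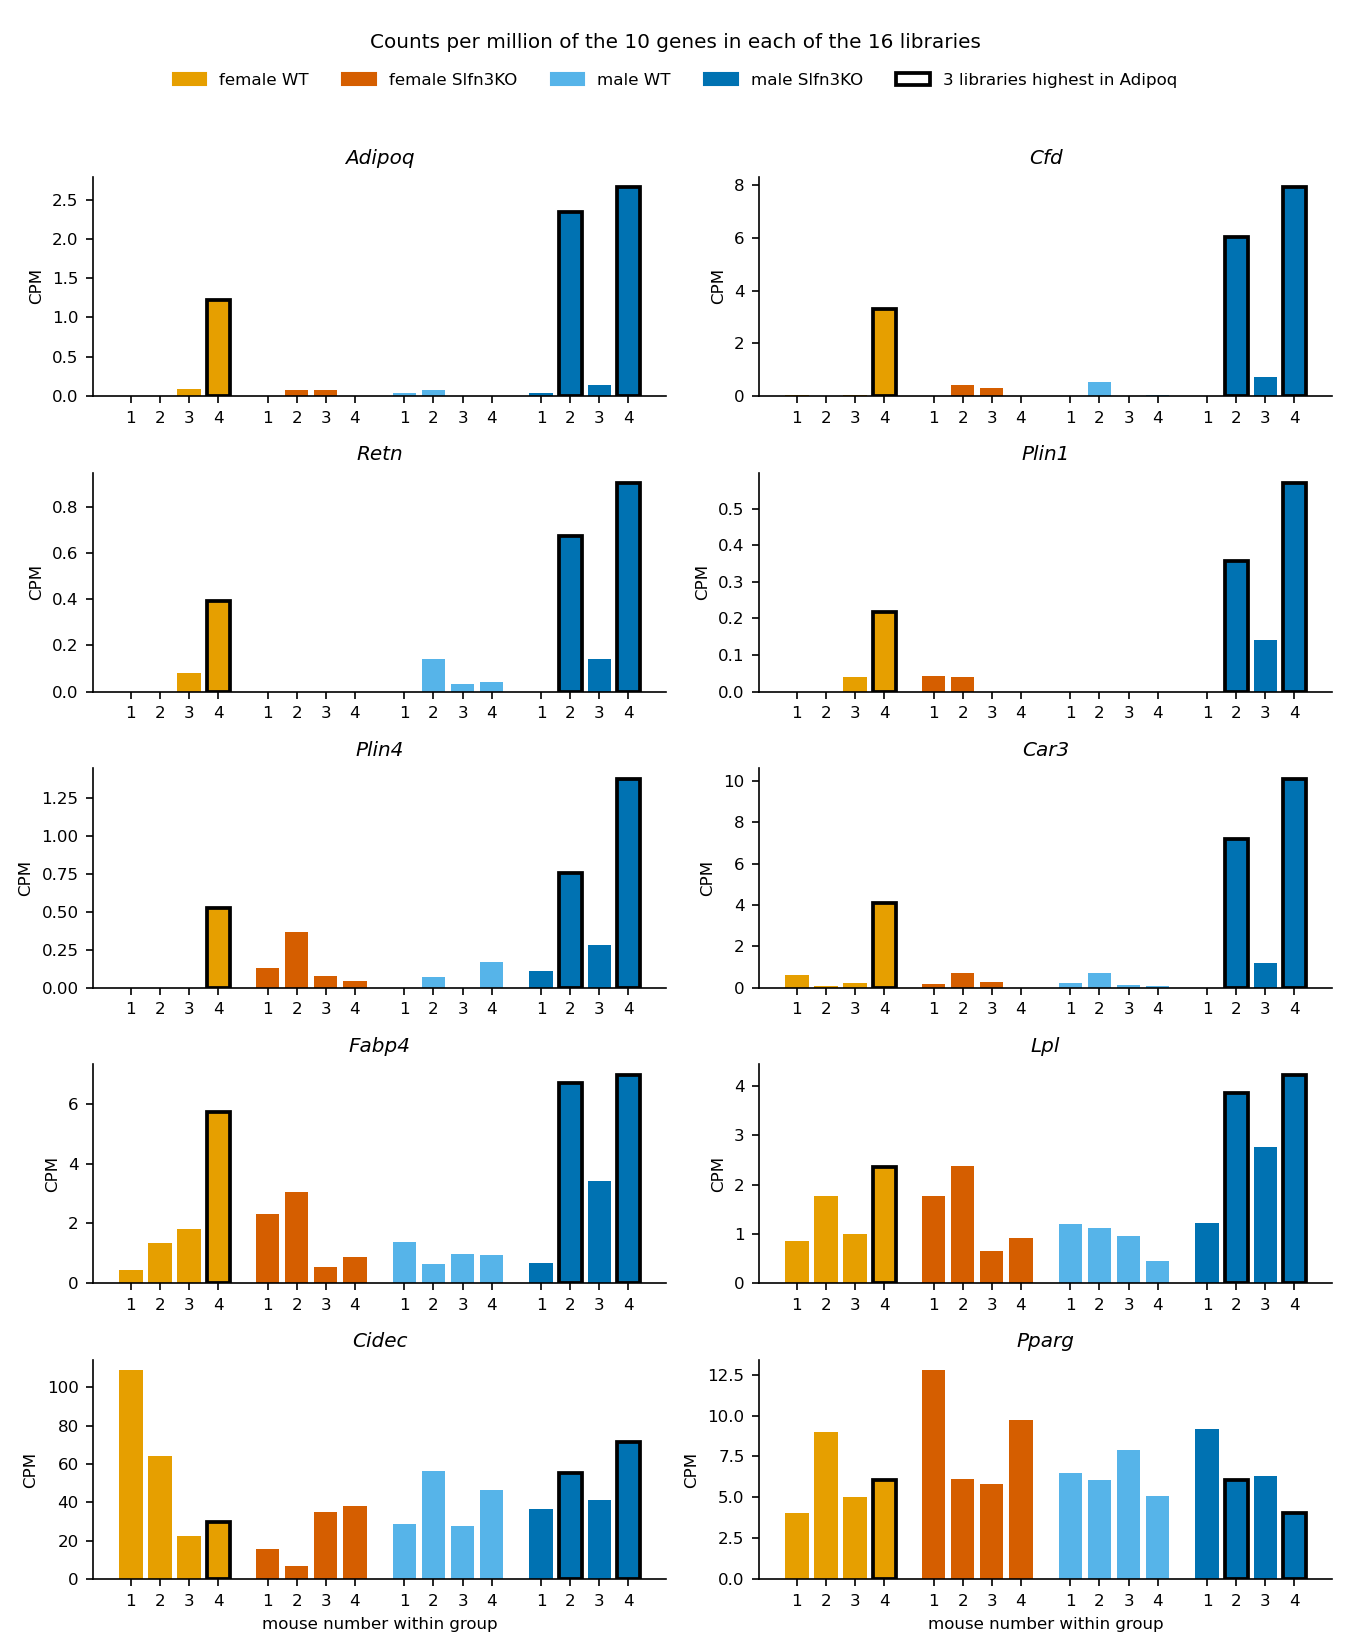
CPM (vertical axes from 0, 1 scale per gene) of each of the 10 genes in each of the 16 libraries, 1 bar per mouse, coloured by labelled sex and genotype. The 3 outlined libraries, male Slfn3KO 2 and 4 and female WT 4, have the highest bars for Adipoq, Cfd, Retn, Plin1, Plin4, Car3 and Fabp4 but not for Lpl, Cidec and Pparg.

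Cidec, which enlarges lipid droplets, did not follow them. It was at 36.3, 55.4, 41.1 and 71.5 CPM in male Slfn3KO, 28.8, 56.5, 27.6 and 46.6 CPM in male WT, 15.6, 6.86, 34.7 and 38.3 CPM in female Slfn3KO, and 109, 64.1, 22.3 and 29.9 CPM in female WT. The highest level was in female WT 1, which had 0 counts of Adipoq, and the 3 libraries highest in Adipoq had 21.4% of the counts of Cidec against 18.3% of all counts. Pparg was the most even of the 10 genes by the ratio of SD to mean, at 4.04 to 12.8 CPM with a median of 6.11 CPM. The 3 libraries had 13.5% of its counts. Per kilobase of exon, Cidec was the most abundant of the 10 genes (mean 23.1 ± 13.3 CPM per kilobase, SD, n = 16), followed by Pparg (3.46 ± 1.17), Cfd (1.31 ± 2.62), Car3 (0.560 ± 1.04), Fabp4 (0.528 ± 0.496), Adipoq (0.305 ± 0.627), Lpl (0.252 ± 0.164), Retn (0.0954 ± 0.172), Plin1 (0.0461 ± 0.0853) and Plin4 (0.0422 ± 0.0644). From Cfd downwards each gene differed from its neighbour in this order by less than the SD over libraries.

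Fabp4 was at 0.685, 6.70, 3.42 and 6.98 CPM in male Slfn3KO 1 to 4 and at 1.37, 0.631, 0.985 and 0.956 CPM in male WT 1 to 4. It was at 2.32, 3.06, 0.544 and 0.882 CPM in female Slfn3KO and at 0.452, 1.35, 1.82 and 5.74 CPM in female WT. The same 3 libraries were the highest, but unlike Adipoq every library had Fabp4, with at least 9 counts. They held 48.4% of its counts. Lpl was at 1.23, 3.85, 2.75 and 4.23 CPM in male Slfn3KO, 1.20, 1.12, 0.951 and 0.457 CPM in male WT, 1.76, 2.37, 0.660 and 0.922 CPM in female Slfn3KO, and 0.853, 1.78, 0.994 and 2.36 CPM in female WT. All 4 male Slfn3KO libraries were above the 4 male WT libraries for Lpl in CPM, which was part of its choice, and the female groups overlapped. In males the separation was slight, with 34 counts in male Slfn3KO 1 and 36 in male WT 1, so it rested on the scaling by library. The 3 libraries highest in Adipoq had 35.2% of the counts of Lpl, and male Slfn3KO 3 and female Slfn3KO 2 were at least as high as female WT 4.

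In all, 7 of the 10 genes were above the other 13 libraries in these 3, namely Fabp4, Adipoq, Plin1, Plin4, Cfd, Retn and Car3. The same held for 33 of the 26566 genes with at least 1 count (0.124%) and for 14 of the 14822 genes that passed the filter on low counts (0.0945%). Adipoq picked the 3 libraries, so its own place is no result. Fabp4 was chosen for being higher in male Slfn3KO, a group that holds some of these libraries. The other genes were chosen with results of these data in view. Their places are therefore descriptions too, and the count of 7 is no test. None of the 63 measured marker genes of 9 other cell types (brown adipocyte, endothelial, macrophage, smooth muscle, B cell follicle, fibroblast, mesothelium, pancreatic acinar and enterocyte) was above the other 13 libraries in these 3. At the share of 0.124% over all genes, nearly any list of 63 genes would give 0, so nothing is read from this. Of the 4 brown adipocyte genes, Ucp1 and Dio2 had at most 3 counts in any library, Cidea reached 0.131 CPM in the 3 libraries and 0.125 CPM in the others, and Cox7a1 ran from 29.4 to 70.8 CPM in the 3 and from 22.9 to 69.9 CPM in the others. The mesothelial genes Msln and Upk1b reached their highest levels in 1 of the 3, at 2.15 and 29.6 CPM against at most 1.78 and 25.9 CPM in the others, but not in all 3. The mesothelial gene Wt1 and the pancreatic genes Cpa1 and Pnlip had at most 2 counts in any library, too few to compare. Their totals of 23082013 to 27323509 counts lay within the range of the others. All 3 had Ddx3y at 42.9 CPM or more and Xist at 0.238 CPM or less, so female WT 4 is among those whose sex transcripts go against the label.

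**Figure D2:**
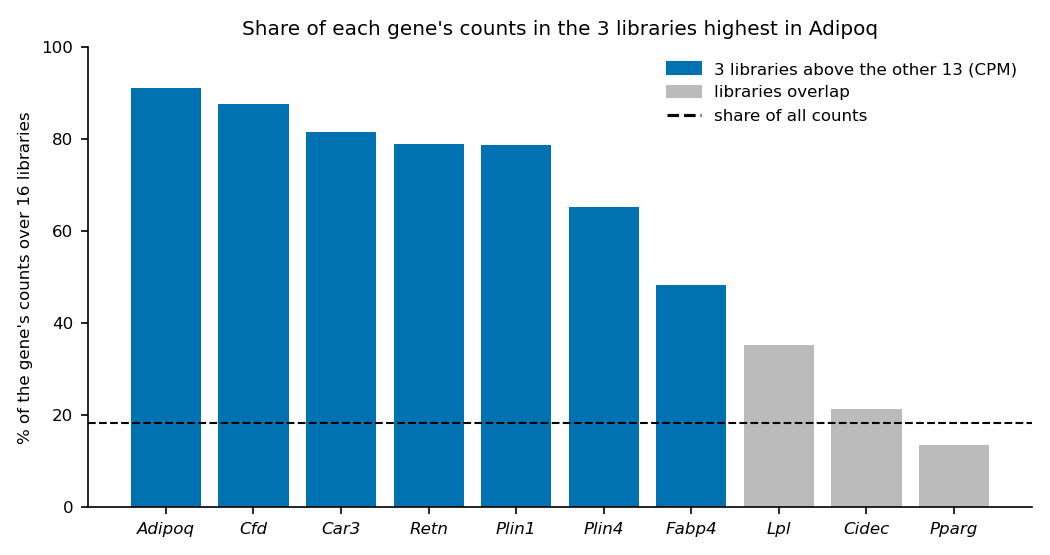
Share of each gene's counts over the 16 libraries that fell in male Slfn3KO 2, male Slfn3KO 4 and female WT 4 (bars, percent, from 0), with the share of all counts in these 3 libraries as a dashed line at 18.3%. Blue bars mark genes for which these 3 libraries exceeded the other 13 in CPM; the bars run from 91.1% for Adipoq to 13.5% for Pparg.

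Within the 3 libraries the counts of several of the genes stood in like proportions to those of Adipoq. The ratio of Cfd to Adipoq counts was 2.58 in male Slfn3KO 2, 2.98 in male Slfn3KO 4 and 2.68 in female WT 4, with exact 95% intervals from 1.90 to 3.54, 2.19 to 4.11 and 1.71 to 4.30. For Car3 the ratios were 3.07, 3.80 and 3.36, and for Retn 0.288, 0.339 and 0.321. The intervals of the 3 libraries overlapped for each of these genes, and they cover counting error only. Cidec, which was not concentrated in these libraries, had ratios as alike (23.7, 26.9 and 24.4, with overlapping intervals), so that like ratios did not set the concentrated genes apart. The ratio of Fabp4 to Adipoq was 2.86, 2.62 and 4.68, and that of Pparg to Adipoq 2.59, 1.52 and 4.96, with the interval of Pparg in male Slfn3KO 4 (1.07 to 2.17) below that in female WT 4 (3.29 to 7.74).

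Since Adipoq and Plin1 moved together and Cidec did not, their promoters are shown, with that of Pparg, as RefSeq gives them for GRCm38.p6. Each runs 5′ to 3′ on the strand of the gene from 250 bases before the transcription start to 50 bases after it. Capitals mark TTGCNNAA, a C/EBP type motif, searched on both strands. It was found in 10.8% of the 32851 promoters of the table.
Adipoq, chr16:23146286-23146585, plus strand: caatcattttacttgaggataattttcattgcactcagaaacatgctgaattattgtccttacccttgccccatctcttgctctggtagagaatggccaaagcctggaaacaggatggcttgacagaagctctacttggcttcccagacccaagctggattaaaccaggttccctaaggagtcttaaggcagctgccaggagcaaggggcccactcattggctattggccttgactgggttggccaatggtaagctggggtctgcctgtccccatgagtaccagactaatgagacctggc
Plin1, chr7:79732727-79733026, minus strand: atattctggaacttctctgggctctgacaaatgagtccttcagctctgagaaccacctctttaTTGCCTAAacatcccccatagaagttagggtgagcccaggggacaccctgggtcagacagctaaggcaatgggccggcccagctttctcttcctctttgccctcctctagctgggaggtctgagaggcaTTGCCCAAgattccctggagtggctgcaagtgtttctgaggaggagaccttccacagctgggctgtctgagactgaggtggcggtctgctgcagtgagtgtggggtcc
Cidec, the second of 2 starts, chr6:113434715-113435014, minus strand: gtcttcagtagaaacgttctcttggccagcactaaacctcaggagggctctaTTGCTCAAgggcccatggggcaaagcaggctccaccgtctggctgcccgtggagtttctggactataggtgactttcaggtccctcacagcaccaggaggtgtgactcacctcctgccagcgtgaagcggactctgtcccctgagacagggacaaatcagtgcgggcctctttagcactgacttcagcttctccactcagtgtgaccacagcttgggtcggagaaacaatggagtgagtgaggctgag
Pparg, the third of 3 starts, chr6:115421816-115422115, plus strand: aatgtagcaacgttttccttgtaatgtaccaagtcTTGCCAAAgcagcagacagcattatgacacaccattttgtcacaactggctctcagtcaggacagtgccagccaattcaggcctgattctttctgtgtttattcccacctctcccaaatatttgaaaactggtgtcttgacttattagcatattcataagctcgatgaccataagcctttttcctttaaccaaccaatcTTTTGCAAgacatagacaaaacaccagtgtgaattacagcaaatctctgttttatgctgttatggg
Plin1 had the motif at 2 places, beginning 187 and 58 bases before the start, and the shown starts of Cidec and Pparg had it at 1 and 2. The other start of Cidec and the other 2 starts of Pparg, not shown, did not have it. For Fabp4, Lpl and Car3 no promoter was available. The motif was thus in promoters of a gene that followed Adipoq and of genes that did not, and it was not in the window of Adipoq itself, nor in those of Retn, Cfd and Plin4. The nuclear receptor half-site AGGTCA (16.3% of all promoters) was in the other 2 starts of Pparg, and TATAAA (13.6%) in 1 of them. A direct repeat of AGGTCA with 1 base between (0.0396% of all promoters) was in none of the windows of these 7 genes.

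The genes with the most similar pattern over the 16 libraries were each other. Among the 14821 other tested genes, Lpl had the highest Pearson correlation of log2 CPM with Fabp4 (r = 0.874) and Fabp4 the highest with Lpl. Other genes near Fabp4 were Plin4 (r = 0.798), Thrsp (0.794), Cyp2e1 (0.791), Car3 (0.760), Exoc3l (0.742), Cfd (0.741) and Dnd1 (0.722). Thrsp regulates fatty acid synthesis and is abundant in fat and liver. For Lpl the nearest genes that are not among the 10 were Cyp2e1 (0.821), Gm43412 (0.772), Thrsp (0.756), Gm9974 (0.755) and Myh7b (0.754). Cidec came 12554th for Fabp4 (r = -0.199) and Pparg 11159th (r = -0.130).

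Adipoq, Plin1 and Retn had too few counts to pass the filter. The likeness to Adipoq was added after its counts were seen, and its nearest of 14822 tested genes were Cfd (r = 0.947), Car3 (0.910), Plin4 (0.846) and Fabp4 (0.807), with Lpl eighth (0.753). The likeness to Cidec was likewise added later. Its nearest genes were Rhod (0.971), Ston2 (0.964), Creb3l3 (0.962), Ypel5 (0.958) and Pgm2 (0.957). Creb3l3 is a transcription factor of liver and small intestine. These correlations rest on the same 16 libraries and, for the low genes, on the same 3.

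Fabp4 and Lpl were set against gene lists that hold none of the 10 genes, with 10 relations tested. Fabp4, Lpl and the lists were chosen with earlier results of these libraries known. The p-values of these relations are therefore descriptions and support nothing. Thrsp, which is in the first list, was also among the genes nearest to Fabp4 and to Lpl. The adipocyte-restricted list had 6 genes that passed the filter (Lgals12, Aoc3, Lipe, Adrb3, Acvr1c and Thrsp), and its mean log2 CPM rose with Fabp4 (Pearson r = 0.804, Spearman rho = 0.724, two-sided permutation test adjusted over 10 relations, p = 0.0005 and 0.0101) and with Lpl (r = 0.827, rho = 0.856, permutation p = 0.0005 and 0.0006 adjusted). Without the 2 libraries farthest from the median of the list, female WT 1 and male Slfn3KO 2, r was 0.735 for Fabp4 and 0.875 for Lpl. Within Slfn3KO libraries r was 0.938 and 0.924 and within WT libraries 0.626 and 0.664. Without the 4 WT libraries with contradicted sex labels r was 0.830 for Fabp4 and 0.811 for Lpl (adjusted permutation p = 0.0018 and 0.0034). In the 13 libraries without the 3 highest in Adipoq it was 0.637 for Fabp4 (rho = 0.495) and 0.670 for Lpl (rho = 0.758). These 3 are also the 3 libraries highest in Fabp4, so values in the other 13 are descriptions without a test. Most of this list was not confined to the 3 libraries, and its name describes the choice of genes, not their source here. The 3 libraries held 12.9% of the counts of Lgals12 and 14.2% of those of Acvr1c, beside 18.3% of all counts. For Lipe, Adrb3, Aoc3 and Thrsp the share was 23.2%, 24.1%, 26.4% and 44.1%. Lipe, the hormone-sensitive lipase, had 39.5 CPM or more in every library and Acvr1c 6.73 CPM or more. Lep, the hormone leptin, had 4, 3 and 2 counts in the 3 libraries and 0 in the other 13.

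Over all 16 libraries Fabp4 showed no detectable relation to 8 endothelial genes (r = 0.305, rho = 0.350, adjusted permutation p = 0.497 and 0.369). In the 13 libraries without the 3 highest in Adipoq, an alternative added after Adipoq was seen, the values were r = 0.892 and rho = 0.901 for Fabp4 and r = 0.643 and rho = 0.643 for Lpl. Male Slfn3KO 2 and 4 had the highest Fabp4 beside endothelial means of 0.31 and 0.18 log2 CPM, the fourth and the third lowest of the 16 libraries. Fabp4 with 8 macrophage genes had r = 0.446 (rho = 0.635, adjusted permutation p = 0.276 and 0.0313) in 16 and r = 0.651 (rho = 0.742) in 13 libraries. With 8 smooth muscle genes Fabp4 had r = 0.196 (adjusted permutation p = 0.613) in 16 and 0.680 in 13 libraries, and with 8 B cell follicle genes r = 0.196 (adjusted permutation p = 0.613) and 0.169. Without the 4 WT libraries with contradicted sex labels, Fabp4 had r = 0.329 with endothelial and 0.695 with macrophage genes (adjusted permutation p = 0.423 and 0.0482). Without the 2 libraries farthest from the median of each list, r for Fabp4 in the remaining libraries was 0.075 with endothelial, 0.736 with macrophage, 0.296 with smooth muscle and 0.210 with B cell follicle genes. Lpl over all 16 libraries had r = 0.185, 0.307, 0.016 and -0.087 with these lists in the same order (adjusted permutation p = 0.613, 0.497, 0.952 and 0.831).

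**Figure D3:**
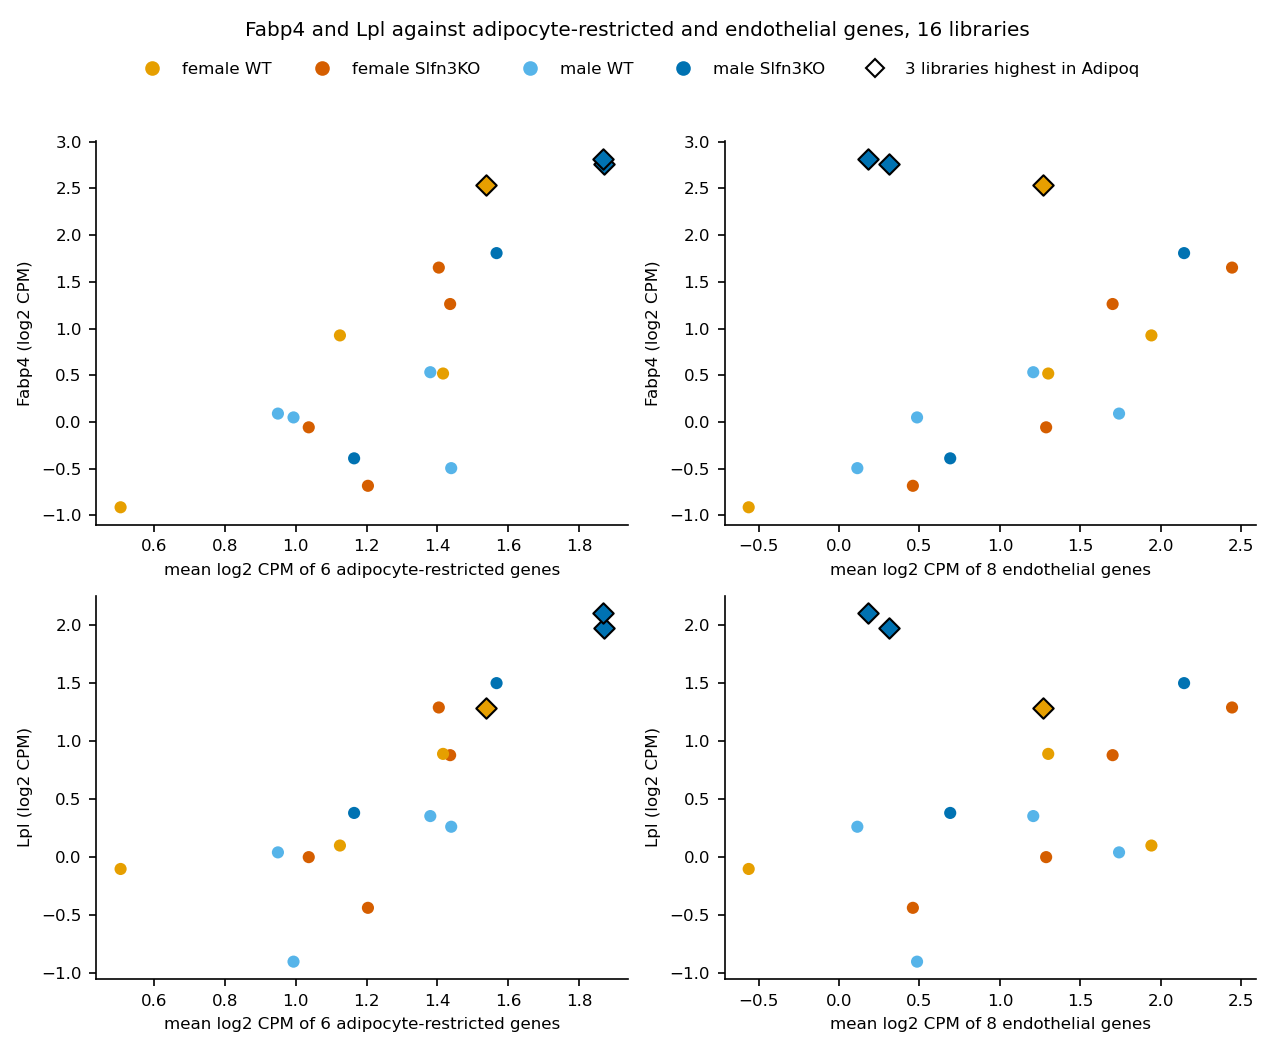
Log2 CPM of Fabp4 (upper panels) and Lpl (lower panels) against the mean log2 CPM of 6 adipocyte-restricted genes (left) and 8 endothelial genes (right), 1 point per library, coloured by labelled sex and genotype. Outlined diamonds are the 3 libraries highest in Adipoq. They lie at the upper end against the adipocyte-restricted list and apart from the other 13 libraries against endothelial genes for Fabp4.

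Between genotypes, Fabp4 was higher in male Slfn3KO (4.45 ± 2.98 CPM, SD, n = 4) than in male WT (0.985 ± 0.302 CPM) by a fitted log2 fold change of 2.16 ± 0.63 (SE). In females it was at 1.70 ± 1.19 CPM in Slfn3KO and 2.34 ± 2.33 CPM in WT, a log2 fold change of -0.48 ± 0.77. Lpl was at 3.01 ± 1.35 and 0.933 ± 0.334 CPM in males (log2 fold change 1.67 ± 0.44) and at 1.43 ± 0.784 and 1.5 ± 0.707 CPM in females (-0.09 ± 0.48). The negative sign in females was not stable. It changed in 4 of 15 alternative fits for Fabp4 and in 7 of 16 for Lpl, whose change was near 0. Without female WT 4 the log2 fold change in females was 0.47 for Fabp4 and 0.22 for Lpl. The paper also measured both genes by qPCR and reports significantly lower levels in Slfn3KO than in WT females. The sign given here concerns the sequenced libraries only.

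Without all 3 libraries highest in Adipoq, which leaves 2 male Slfn3KO and 3 female WT mice, the male log2 fold change was 1.05 ± 0.64 for Fabp4 and 1.07 ± 0.51 for Lpl. Female minus male, the difference in the log2 fold change was -2.63 ± 1.07 for Fabp4 in all libraries and -0.57 ± 1.01 without these 3. For Lpl it was -1.75 ± 0.68 and -0.85 ± 0.75. Without the 4 WT libraries with contradicted sex labels (mice 3 and 4 of either sex), Fabp4 had log2 fold changes of 2.15 ± 0.94 in males and 0.87 ± 0.79 in females, and Lpl of 1.37 ± 0.50 and 0.09 ± 0.58. These fits had 2 WT mice in each sex. No label pairs the mice. With mouse number as a replicate block, an alternative fit only, the male log2 fold changes were 1.88 ± 0.77 for Fabp4 and 1.60 ± 0.51 for Lpl.

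The adipocyte genes with most of their counts in the 3 libraries had larger fitted changes with larger errors. In males the log2 fold change was 4.62 ± 1.69 for Cfd and 4.04 ± 1.42 for Car3, and without the 3 libraries it was 1.28 ± 1.77 and 1.07 ± 1.39. Leaving out male WT 2 alone, the highest male WT library for both genes, moved it the other way, to 7.76 for Cfd and 5.09 for Car3. The fitted folds of such low counts depend on the model's prior and are no bounds. In both sexes together Plin4 had 1.84 ± 0.95, and without female WT 4 it had 3.59. Cidec had 0.36 ± 0.28 in males and -1.23 ± 0.63 in females, and without the 3 libraries -0.05 ± 0.32 and -1.44 ± 0.67. Cidec had -1.85 ± 0.62 in females without the 4 WT libraries with contradicted sex labels. The female WT libraries then left, 1 and 2, were the highest of their group for Cidec, at 109 and 64.1 CPM. Pparg had 0.01 ± 0.27 and 0.50 ± 0.33.

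**Figure D4:**
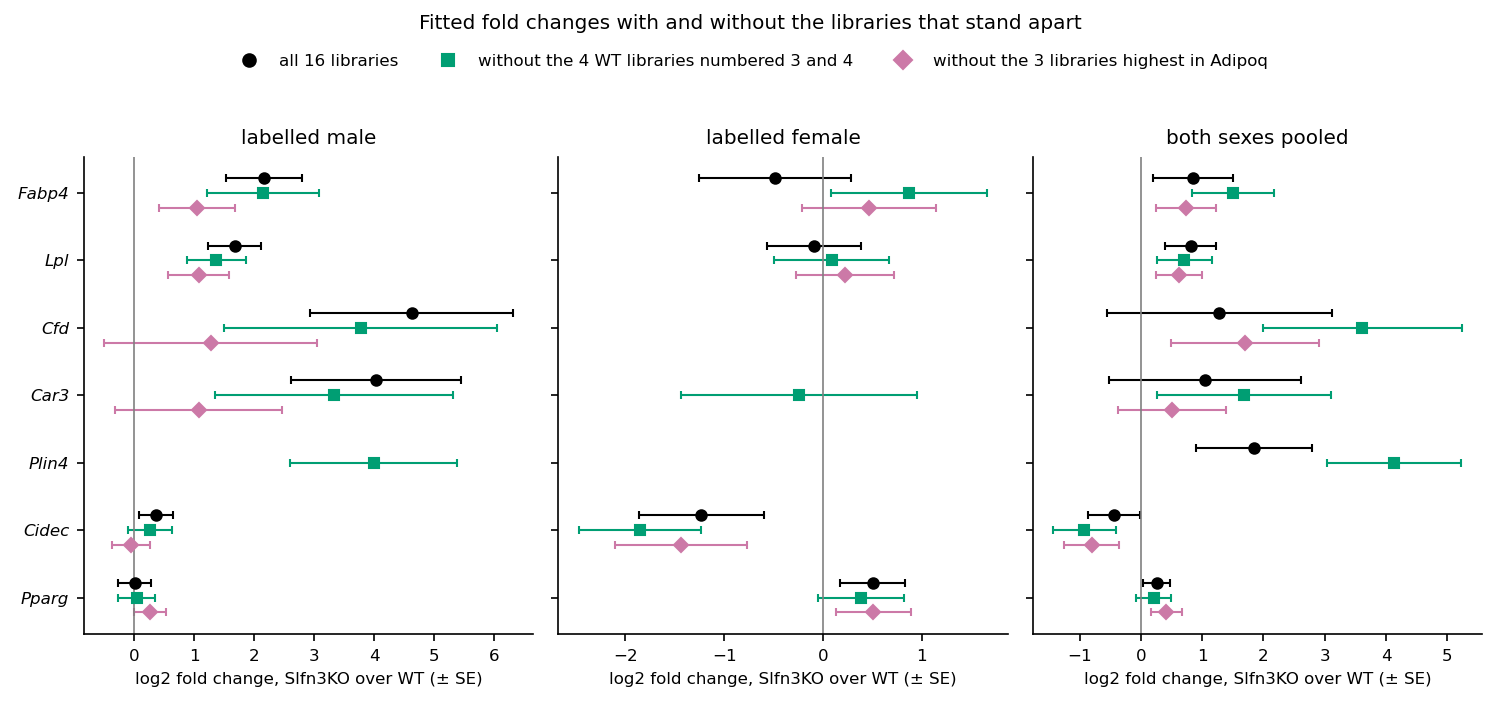
Fitted log2 fold changes of Slfn3KO over WT (points) with standard errors (bars) of 7 genes in mice labelled male, labelled female and both pooled, with all 16 libraries (black), without the 4 WT libraries numbered 3 and 4 (green) and without the 3 libraries highest in Adipoq (pink). A missing point means that the gene had too few counts in that comparison; the female values of Fabp4 and Lpl are below 0 with all libraries and above 0 in both other fits.

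Of the 10 genes 7 had enough counts to be tested in both sexes pooled and in the comparison of the sexes, 6 in males and 4 in females. None passed the threshold (Benjamini-Hochberg adjusted p under 0.05 in edgeR's quasi-likelihood test and at least 1.5-fold) in any of the 4 comparisons, where 0% of genes were called in males, in females, in both sexes pooled and in the comparison of the sexes. At unadjusted p under 0.05 and 1.5-fold, Fabp4, Lpl, Cfd and Car3 passed in males, beside 1.93% of the 14124 genes tested, and these 4 and Cidec in the comparison of the sexes, beside 6.38% of 14822. Nothing can be read from these counts, since Fabp4 and Lpl were chosen on these contrasts. In females (9.71% of 14064 genes) and in both sexes pooled (6.64%) none of them did. With the replicate block the number of all genes past the unadjusted threshold in males went from 272 to 447. DESeq2 called none of the 10 genes either, with no adjusted p for 5 of the 7 in the comparison of the sexes, beside 0.371% of genes pooled, 0.0991% in males, 3.60% in females and 0.162% in the comparison of the sexes. Without the 4 WT libraries with contradicted sex labels edgeR again called none of them, where 2.38% of genes were called in the comparison of the sexes and 0% in the others, and DESeq2 called Cidec in females (8.69% of genes) and in the comparison of the sexes (12.5%), but none pooled (0.0861%) or in males (0.557%). Each labelled sex then had 2 WT mice. The unadjusted threshold was then passed by 4 of the 9 tested genes pooled (3.03% of all genes), 2 of 9 in males (3.07%), 1 of 5 in females (15.7%) and 1 of 9 in the comparison of the sexes (20.5%).

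The other genes of adipocyte lipid handling were mostly present throughout. Of 51 further adipocyte genes, 44 were tested in both sexes pooled, with 18 fitted higher and 26 lower in Slfn3KO and a median log2 fold change of -0.05, against -0.00 over all genes. None was called by edgeR. At unadjusted p under 0.05 and 1.5-fold 3 of the 44 passed, where 6.64% of all genes did. These were Vldlr, the very low density lipoprotein receptor (log2 fold change 0.83 ± 0.21), Slc2a4, the insulin-responsive glucose transporter (0.83 ± 0.32), and Agt, angiotensinogen (0.64 ± 0.22). Vldlr alone was called by DESeq2, pooled (0.82 ± 0.21, adjusted p = 0.0364) and in females (1.09 ± 0.29, adjusted p = 0.0125). In males 0 of 40 passed the unadjusted threshold (1.93% of all genes), and in females 4 of 39 did (Lgals12, Dgat2, Vldlr and Aqp7), near the 9.71% of all genes. For the difference between the sexes 8 of 44 did, beside 6.38% of all genes: Lipe, Pnpla2, Dgat2, Gpd1, Lpin1, Fasn, Cd36 and Aqp7. Without the 4 WT libraries with contradicted sex labels Vldlr was again called by DESeq2 in females (1.54 ± 0.30, adjusted p = 4.01e-05) but not pooled (adjusted p = 0.314), and 10 of the 44 genes tested in females were called by DESeq2, beside 8.69% of all genes. The female fit then had only 2 WT mice. In that setting edgeR called Vldlr and Lpin1 for the difference between the sexes, 2 of 45 genes beside 2.38% of all genes.

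By role, the most abundant gene per kilobase was Lipe among the adipocyte-restricted genes (22.5 ± 9.20 CPM per kilobase, SD, n = 16), Rxra, the partner of Pparg, among transcription factors (34.3 ± 4.80), and Nampt among secreted products (21.5 ± 4.18). It was Plin3 among droplet and lipolysis genes (214 ± 65.5), Dgat1, which makes triglyceride, among synthesis genes (277 ± 96.3), Aqp7, the glycerol channel, among uptake genes (7.75 ± 3.98) and Adipor2 among receptors (58.3 ± 21.5). The largest pooled log2 fold change of each role was 1.06 ± 0.54 for Thrsp, -0.21 ± 0.35 for Klf15, 0.64 ± 0.22 for Agt, -0.32 ± 0.20 for Plin3, -1.26 ± 0.76 for Scd1, 0.83 ± 0.32 for Slc2a4 and -0.29 ± 0.26 for Adipor2. None of these was called, with edgeR adjusted p between 0.327 and 0.816. The value of Scd1 turned to 1.41 ± 0.80 without the 4 WT libraries with contradicted sex labels.

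In the family of fatty acid binding proteins 4 of 9 genes besides Fabp4 were tested. Fabp6, the ileal bile acid carrier, was the most abundant per kilobase, and Fabp2 of enterocytes had a mean level of 10160 ± 6359 CPM per kilobase (SD, n = 16) where Fabp4 had 0.528 ± 0.496. All 4 were fitted lower in Slfn3KO in both sexes pooled and none was called by edgeR or DESeq2. Fabp1 had the largest change, with a pooled log2 fold change of -1.20 ± 1.01 and -3.00 ± 1.22 in females, the latter at an unadjusted edgeR p of 0.0373 (adjusted p = 0.277). Fabp1 ran from 1.99 to 174 CPM in female WT (median 14.3) and from 2.79 to 12.5 CPM in female Slfn3KO. The female groups thus overlapped, with the lowest level in a WT library. When the 4 WT libraries with contradicted sex labels were left out, 2 of the 4 were fitted higher and 2 lower pooled, and DESeq2 called Fabp1 (-3.96 ± 1.10, adjusted p = 0.00784) and Fabp2 (-2.19 ± 0.62, adjusted p = 0.00916) in females, where it called 8.69% of all genes. The female WT group then had only 2 mice.

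Of 11 genes listed beside lipoprotein lipase, its partners and the other lipases Lipc and Lipg, 8 were tested. Gpihbp1, which anchors the enzyme to capillaries, had 15 counts or fewer in any library. Apoc2, the activator of the enzyme, was the most abundant per kilobase (127 ± 101 CPM per kilobase) and Lipc, hepatic lipase, had the largest pooled change (-1.44 ± 0.44, edgeR adjusted p = 0.327). edgeR called none, with 2 of 8 at the unadjusted threshold pooled (Angptl4 and Lipc, beside 6.64% of all genes), 0 in males (1.93%), 4 in females (Angptl4, Apoc3, Lipc and Lipg, beside 9.71%) and 2 for the difference between the sexes (Apoc3 and Lipg, beside 6.38%). DESeq2 called 3 in females, where it called 3.60% of all genes. Angptl4 and Apoc3, both inhibitors of lipoprotein lipase, fell by 1.36 and 2.31 on the log2 scale (adjusted p = 0.0441 and 0.0142), and Lipg, endothelial lipase, rose by 1.41 (adjusted p = 0.0144). Without the 4 WT libraries with contradicted sex labels, only 2 female WT mice were left. DESeq2 also called these 3 in females in that setting (beside 8.69% of all genes), with log2 fold changes of -1.97 ± 0.21, -3.03 ± 0.57 and 1.92 ± 0.37. The pooled change of Lipc was then -0.11 ± 0.34.

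Summed over Adipoq, Plin1, Cfd and Retn, the level ran from 0.0360 to 12.1 CPM in male Slfn3KO, from 0.0334 to 0.736 CPM in male WT, from 0 to 0.531 CPM in female Slfn3KO and from 0 to 5.12 CPM in female WT. The groups thus overlapped, and the spread within male Slfn3KO and within female WT was wider than that within the other groups. Endothelial markers summed to 11.3 to 43.4, 9.50 to 44.8, 12.6 to 52.4 and 6.93 to 37.9 CPM in the same order, and enterocyte markers to 39470 to 62340, 36590 to 63290, 23110 to 40790 and 32650 to 73530 CPM. Whether RNA of fat accounts for the differences in Fabp4 and Lpl was not tested; the fits without the 3 libraries give their size when those libraries are left out.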

How the data were processed

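Ileum mucosa RNA was extracted with a lipid tissue kit, made into stranded libraries and sequenced as single reads of 50 bases. Per the paper's methods the authors used cutadapt for trimming and STAR for alignment. The deposited counts are raw reads per gene, with no normalization, and their header names featureCounts with reverse-stranded counting, while the methods name HTSeq. The submitters' processing notes give featureCounts 1.4.6, DESeq2 1.22.2 and mm10. The deposited table's exon length (unit: other, bases) was used for levels per kilobase. GENCODE M21 gave symbols for 45143 of 46078 genes.

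Here edgeR 4.0.16 (R 4.3.3) was run on the counts of all genes with TMM factors, filterByExpr (minimum count 10) and the robust quasi-likelihood test, adjusted by the Benjamini-Hochberg method, with labelled sex as covariate in the pooled fit. DESeq2 1.42.0 was an alternative. A call needed an adjusted p under 0.05 and 1.5-fold. Log2 CPM used a prior count of 2, and correlations 100000 permutations (numpy 2.4.6, scipy 1.17.1). The fits were also run on simulated counts, in which no library was made to stand apart or to go against its sex label. That run therefore says nothing about these features of the data. The 10 genes, the lists and the rule for named genes were chosen with earlier results of these data known; named are all 10, the most abundant and the most changed gene of each role, and the 5 nearest genes to Fabp4 and Lpl, of which 1 is not reported here.

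Samples of the same number are different mice. Their deviations from the group means had r = 0.229, 0.317, 0.518 and 0.138 in males for numbers 1 to 4. In females r was -0.362, 0.143, -0.337 and -0.113. No label pairs the mice, and libraries of different numbers were not compared. In males, numbers 3 and 4 set a Slfn3KO library with Ddx3y beside a WT library with Xist. The block by number is therefore an alternative fit and no known pairing. Each sample is 1 mouse per the labels. Depth was 20823279 to 30813117 counts per library. Alternatives were other factors, other filters, a replicate block, each library left out, and fits without 3 or 4 libraries that stand apart; leaving out the 3 libraries highest in Adipoq, and DESeq2 without the 4, were chosen after seeing the data.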

Additional observations from a re-analysis of the deposited data

Results flagged for a closer look

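In groups of 4 libraries, 38 sets of values of the 10 genes were examined for a single library far from the rest of its group, and 5 were marked. Chance marks about 1 in 20 sets of normally distributed values. Where most libraries are near 0, as here, a single library with a few counts can be marked. The genes were also chosen with results known, so the marks are not set against that rate. Female WT 4 was far above the other female WT libraries for Adipoq (1.23 CPM, next 0.0828), Plin4 (0.525 CPM, the others 0), Cfd (3.28 CPM, next 0.0502) and Car3 (4.12 CPM, next 0.602). Male WT 2 was far above the other male WT libraries for Cfd, at 0.526 CPM against 0.0415 for the next. The 4 marks of female WT 4 come from 1 library and are not independent of each other.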

How the results depend on the processing

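The number of calls was 0 in all 4 comparisons with edgeR, and stayed at 0 with RLE factors, with other filters, without any single library and without the 3 libraries highest in Adipoq. DESeq2 called 55 genes pooled, 14 in males, 506 in females and 24 for the difference between the sexes, and an unadjusted p under 0.05 with 1.5-fold gave 984, 272, 1366 and 946. Without the WT libraries numbered 3 and 4, edgeR called 359 genes for the difference between the sexes, and DESeq2, an alternative added after seeing the data, called 13 pooled, 81 in males, 1272 in females and 1891 for the difference; the cause was not tested. With the replicate block, which groups mice by number without a label that pairs them, edgeR calls stayed at 0 in the 4 comparisons. The unadjusted count then went from 272 to 447 in males and from 1366 to 844 in females. Of the 10 relations of Fabp4 and Lpl with gene lists, 2 passed an adjusted p of 0.05 by Pearson's r and 3 by Spearman's rho with all libraries, 3 and 4 without the WT libraries numbered 3 and 4, and 6 and 5 without the 3 libraries highest in Adipoq, a count that supports nothing since these 3 are also the highest in Fabp4. Among 490 refitted fold changes of the 10 genes, 25 moved by at least the SD between mice, and those of Fabp4 or Lpl among them were for the difference between the sexes or in females. Adipoq, Plin1, Plin4 and Retn had at most 59 counts in any library, which limits their precision.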

Other observations

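The 3 libraries highest in Adipoq exceeded the other 13 for 33 of the 26566 genes with at least 1 count (0.124%), 7 of them among the 10 genes. Those named here were picked from the rest after their values were seen. Others, such as B3galt2, Adam2, Glb1l2, Cdk9 and Xrcc4, are not described. Cyp2e1, a cytochrome P450 of liver and fat, had 24 to 44 counts in the 3 libraries and at most 12 elsewhere, the lowest of the 3 being 2.07 times the highest of the 13 in CPM. Thrsp had 11 to 26 counts against at most 9. Hp (haptoglobin) had 7 to 17 against at most 9, so its counts overlapped, and in CPM the lowest of the 3 was 1.05 times the highest of the 13. Abcd2, a peroxisomal transporter, had 8 to 12 counts against at most 6. Pyy, the peptide YY hormone of ileal endocrine cells, also had its 3 highest levels there, at 33.7 to 44.4 CPM against at most 30.1 CPM, as did Atp1b1 at 2230 to 2680 against at most 2210 CPM. What these genes share beyond the 3 libraries was not tested.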
